A study of Mus musculus with 48 samples.

Results

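The 10 apolipoprotein genes Apoa1, Apoa2, Apoa4, Apoa5, Apob, Apoc1, Apoc3, Apoe, Apoh and Apom were followed in a table of the histone mark H3K27me3 at 24466 mouse genes. They were chosen by name, as the rows whose gene symbol equals a member, and all 10 were found. The table gives 1 value per gene for each of 3 cell types. The first are adult hepatocytes of mice aged 8 weeks. The second are mature beta cells of the same age, sorted as red fluorescent cells from animals with the insulin reporter Ins-RFP. The third is definitive endoderm of the embryo at e8.25, sorted with an antibody to the surface antigen ENDM1. Definitive endoderm is the embryonic layer from which liver and pancreas arise, and the series treats it as a baseline in some of its comparisons. Embryos came from B6C3F1 females mated to C3H, Pdx1-eGFP or Ins-RFP males. For the adult animals, strain, hepatocyte isolation and any pooling were not stated. The labels list 2 antibody libraries and 2 input libraries for each cell type, 12 of the 48 libraries of the series, but not how they were combined.

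Apolipoproteins are the protein part of lipoproteins, the particles that carry triglyceride and cholesterol in plasma. Apob is the structural protein of chylomicrons and very low density lipoproteins and stays with its particle, whereas the A, C and E proteins are small and move between particles. Most are secreted by the liver, and several also by the intestine and by the yolk sac. H3K27me3 is laid down by Polycomb repressive complex 2 and is associated with silent genes, most strongly at promoters rich in CpG dinucleotides.

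Promoter sequences are shown because the region measured for each gene is not given, and because they show that apolipoprotein promoters hold few CpG dinucleotides. RefSeq promoters of build GRCm38.p6, from 250 bases before the start of the gene to 50 after it, were found for 8 of the 10 genes (for all but Apoc1 and Apoc3). The ratios were made on the older build mm9, so these coordinates belong to the sequences only. Capitals mark each CpG, and every sequence reads 5′ to 3′ in the direction of its gene. Apoa5 had the largest difference between hepatocytes and beta cells, Apoh the smallest, and Apoa1 the highest endoderm ratio. Gdf7, a gene for a growth factor that lies near Apob, is shown for contrast. It carried high ratios in all 3 cell types and was chosen after its values were seen.
Apoa5, chr9:46268358-46268657, plus strand: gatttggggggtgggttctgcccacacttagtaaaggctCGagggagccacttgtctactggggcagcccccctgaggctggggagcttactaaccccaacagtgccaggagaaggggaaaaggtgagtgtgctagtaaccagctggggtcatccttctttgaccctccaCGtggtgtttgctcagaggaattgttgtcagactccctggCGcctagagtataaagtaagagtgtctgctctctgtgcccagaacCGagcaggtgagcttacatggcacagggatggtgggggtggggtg
Apoh, chr11:108395047-108395346, plus strand: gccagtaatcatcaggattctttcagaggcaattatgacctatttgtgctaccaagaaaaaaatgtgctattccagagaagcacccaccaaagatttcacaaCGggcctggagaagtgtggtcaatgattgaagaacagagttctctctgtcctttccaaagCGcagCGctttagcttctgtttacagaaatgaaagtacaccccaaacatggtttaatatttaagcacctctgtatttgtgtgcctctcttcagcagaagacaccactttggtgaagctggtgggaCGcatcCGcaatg
Apoa1, chr9:46228380-46228679, plus strand: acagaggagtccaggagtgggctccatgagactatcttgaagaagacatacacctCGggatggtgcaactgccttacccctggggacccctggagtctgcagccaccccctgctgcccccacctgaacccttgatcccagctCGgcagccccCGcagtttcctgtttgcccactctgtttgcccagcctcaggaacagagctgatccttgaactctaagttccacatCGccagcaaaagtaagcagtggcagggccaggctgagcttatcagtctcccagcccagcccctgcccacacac
Gdf7, chr12:8301905-8302204, minus strand: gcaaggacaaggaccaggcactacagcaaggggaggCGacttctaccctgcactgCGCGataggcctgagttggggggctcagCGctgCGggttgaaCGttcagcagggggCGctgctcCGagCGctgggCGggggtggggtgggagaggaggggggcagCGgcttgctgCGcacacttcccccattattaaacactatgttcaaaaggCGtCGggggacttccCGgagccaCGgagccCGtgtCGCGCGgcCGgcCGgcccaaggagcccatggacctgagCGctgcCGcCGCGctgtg

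The promoters of Apoa5 and Apoa1 hold 4 CpG dinucleotides each and that of Apoh 5, against 26 in that of Gdf7. CpG content is also given as the observed number over the number that the C and G content would give. This value was 0.173 for Apoa5, 0.345 for Apoh and 0.158 for Apoa1, and 0.766 for Gdf7. Across the 8 apolipoprotein promoters it lay between 0.041 (Apoa4) and 0.420 (Apom), with a median of 0.264, and the median over 17410 promoters of genes in the table was 0.577. All 8 were below that median, although their GC content was ordinary (median 56.7%, against 56.3% for all promoters). Apoa1, Apoa2, Apoa4 and Apoa5 fell in the 25% of promoters with the lowest CpG content, and Apob, Apoe, Apoh and Apom in the next 25%.

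Exact matches to short motifs were searched on both strands of the same 300 bases. The letters TATAAA, the TATA box motif, were found in the promoters of Apoa2, Apoa5 and Apob, 3 of 8, and in 12.9% of all promoters. In Apoa5 it starts 31 bases before the start of the gene. The forkhead type motif TGTTTAC was found in Apoa2 and Apoh (3.00% of all promoters) and the C/EBP type motif TTGCNNAA in Apob (10.1%). The motifs CAAAGTCCA (HNF4 type, 0.465% of all promoters), TATTTAC (forkhead type, 2.68%) and TTGCGCAA (0.241%, itself a case of TTGCNNAA) had no exact match in the 8 promoters. A match describes the letters of this window and is not evidence of binding.

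Each value is a ratio of H3K27me3 over input that the authors quantile-normalized, so all 3 columns share a median of 0.711, a lower quartile of 0.459 and an upper quartile of 1.27. A ratio therefore says where a gene stands within its own cell type, and total H3K27me3 cannot be compared. There is no replicate error, read depth is unknown, and no test across samples was possible. A ratio from many cells cannot tell fewer marked cells from less mark per cell. Differences were taken between values of log2(ratio + 0.0711). The words higher and lower are used for log2 differences of 1 or more in size, which is 2-fold on that scale.

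**Figure D1:**
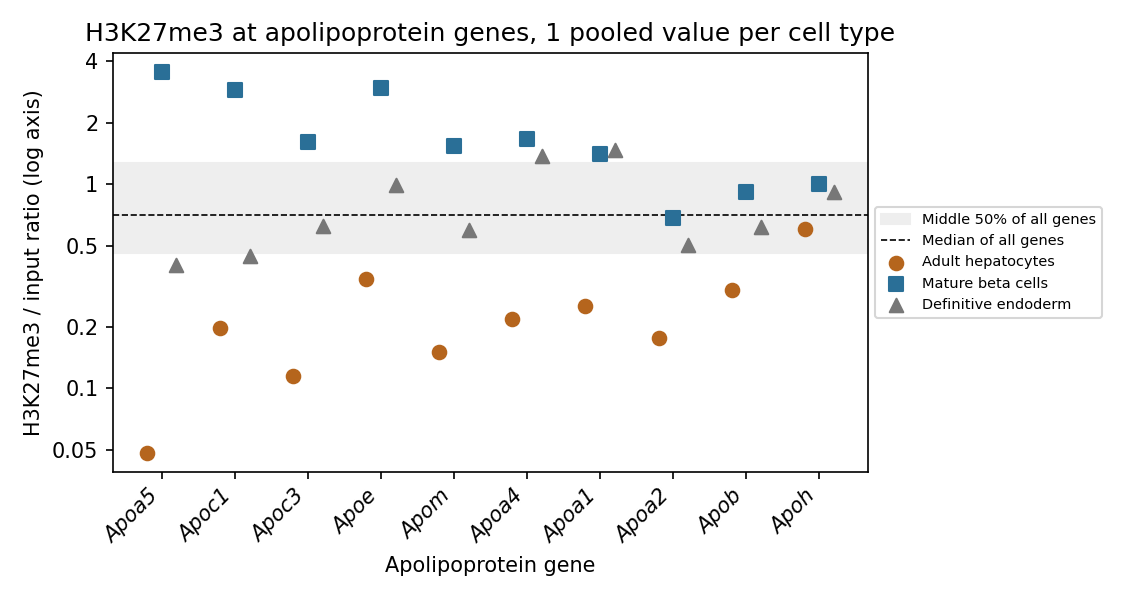
Ratio of H3K27me3 to input (log axis) at the 10 apolipoprotein genes, 1 value per cell type, ordered by the difference between hepatocytes and beta cells. How the libraries behind each value were combined is not known. The dashed line is the median of all genes (0.711) and the grey band runs between their quartiles. Every hepatocyte point is the lowest of its gene, and the beta cell point is the highest at every gene but Apoa1.

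All 10 apolipoprotein genes carried their lowest ratio in hepatocytes, as did 33.9% of all genes. The highest ratio was that of beta cells at 9 of the 10 and at 35.7% of all genes. The order hepatocytes, endoderm, beta cells (low to high) held at these 9 genes and at 16.0% of all genes. Apoa1 was the exception, with endoderm slightly above beta cells. In hepatocytes the ratios lay between 0.0484 and 0.607 with a median of 0.209, and 9 of 10 were in the lowest 25% of genes. Beta cells had ratios between 0.685 and 3.55 with a median of 1.57, and 7 of 10 were in the top 25%. The endoderm ratios lay between 0.403 and 1.47, with a median of 0.619, close to the middle of all genes (median rank percentile 44.3). Being in the lowest 25% in hepatocytes and in the top 25% in beta cells applied to 7 of the 10 genes and to 499 of all genes (2.04%). None of the 10 reached the top 5% of genes in hepatocytes or endoderm, and in beta cells only Apoa5 did (rank percentile 95.8).

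The genes of high density lipoprotein differed most among themselves in endoderm. Apoa1, the main protein of that particle and activator of the enzyme LCAT, had ratios of 0.254 in hepatocytes, 1.40 in beta cells and 1.47 in endoderm. The last pair differed by -0.06 on the log2 scale, whereas hepatocytes differed by -2.24 from endoderm and by -2.18 from beta cells. Apoa2, the second protein of the particle, had 0.176, 0.685 and 0.503 in the same order. Its beta cell ratio was the lowest of the 10 genes and lay just under the median of all genes. Apom, a lipocalin that carries sphingosine-1-phosphate, had 0.152 in hepatocytes, 1.54 in beta cells and 0.595 in endoderm, with a log2 difference of 1.27 between beta cells and endoderm.

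Apoa4 and Apoa5 act on triglyceride-rich particles. Apoa4, made chiefly by the intestine, resembled Apoa1, with ratios of 0.219 in hepatocytes, 1.67 in beta cells and 1.38 in endoderm. Apoa5, a scarce liver protein that promotes triglyceride clearance by lipoprotein lipase, had the widest range of the 10 genes. Its ratios were 0.0484 in hepatocytes, 3.55 in beta cells and 0.403 in endoderm. The hepatocyte and endoderm values were the lowest of the 10 genes in those cell types and the beta cell value the highest. The beta cell ratio was 73.2 times the hepatocyte ratio, a fold that rests on a small hepatocyte value, and the log2 difference with the pseudocount was -4.92 (hepatocytes minus beta cells).

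Apoc1, Apoc3 and Apoe each had their highest ratio in beta cells. Apoc3, an inhibitor of lipoprotein lipase and of remnant uptake, had ratios of 0.115 in hepatocytes, 1.61 in beta cells and 0.622 in endoderm. Apoc1, which slows the uptake of lipoproteins, had 0.198, 2.89 and 0.447 in that order. Apoe, a ligand of lipoprotein receptors, which macrophages and glia also make, had 0.345 in hepatocytes, 2.97 in beta cells and 0.990 in endoderm. Apoe and Apoc1 stood at rank percentiles 94.4 and 94.1 in beta cells, behind Apoa5 only.

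Apob and Apoh showed the smallest differences of hepatocytes from either other cell type. Apob had ratios of 0.304 in hepatocytes, 0.913 in beta cells and 0.617 in endoderm, a log2 difference of -1.39 between hepatocytes and beta cells. Apoh, the phospholipid-binding beta-2-glycoprotein I, had 0.607, 1.00 and 0.918, and it was the only member outside the lowest 25% of hepatocyte ratios (rank percentile 43.3). Its log2 difference of -0.67 between hepatocytes and beta cells was the only one of the 10 under the threshold.

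The first comparison set hepatocytes against the endoderm baseline. Of the 10 apolipoprotein genes, 7 were lower in hepatocytes and 0 higher, where 13.3% of all genes were lower and 12.8% higher. Their median log2 difference was -1.47, beside -0.03 for all genes. The largest differences were those of Apoa4 (-2.32), Apoa1 (-2.24), Apoa5 (-1.99) and Apoc3 (-1.90), the 4 genes of 1 cluster. Apom (-1.58), Apoe (-1.35) and Apoa2 (-1.22) followed. Apoc1 (-0.94), Apob (-0.88) and Apoh (-0.54) had the same sign and stayed under the threshold. In rank percentiles the difference was -72.6 points at Apoa1 and -71.9 points at Apoa4. At Apoa5 it was only -15.4 points, with an endoderm ratio that was itself low (rank percentile 17.8). The median depends on a common shift: dividing each column by its most frequent ratio moved the median of all genes to 0.38 and that of the members to -1.07. Relative to all genes the members' median was then -1.45. After that division 5 of the 10 were lower, since Apoe (-0.94) and Apoa2 (-0.84) came under the threshold, where 7.77% of all genes were lower, and of all genes called either way 73.4% were higher in place of 48.9%.

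The second comparison set beta cells against endoderm and showed the other direction. Of the 10 genes, 5 were higher in beta cells and 0 lower, where 14.1% of all genes were higher and 15.1% lower. Their median log2 difference was 0.89, beside -0.01 for all genes. Apoa5 (2.93) and Apoc1 (2.51) had the largest differences, followed by Apoe (1.52), Apoc3 (1.28) and Apom (1.27). Under the threshold were Apob (0.52), Apoa2 (0.40), Apoa4 (0.27), Apoh (0.12) and Apoa1 (-0.06), whose sign turned to 0.36 after division by the most frequent ratio. That division put the median of all genes at 0.38 and that of the members at 1.29, which is 0.91 above all genes. The same 5 genes were higher, where 23.4% of all genes were now higher, and the share of higher among all called genes was 70.9% in place of 48.3%. The endoderm ratios are shared by the first and second comparison, so the results of each are given side by side and not as independent findings.

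**Figure D2:**
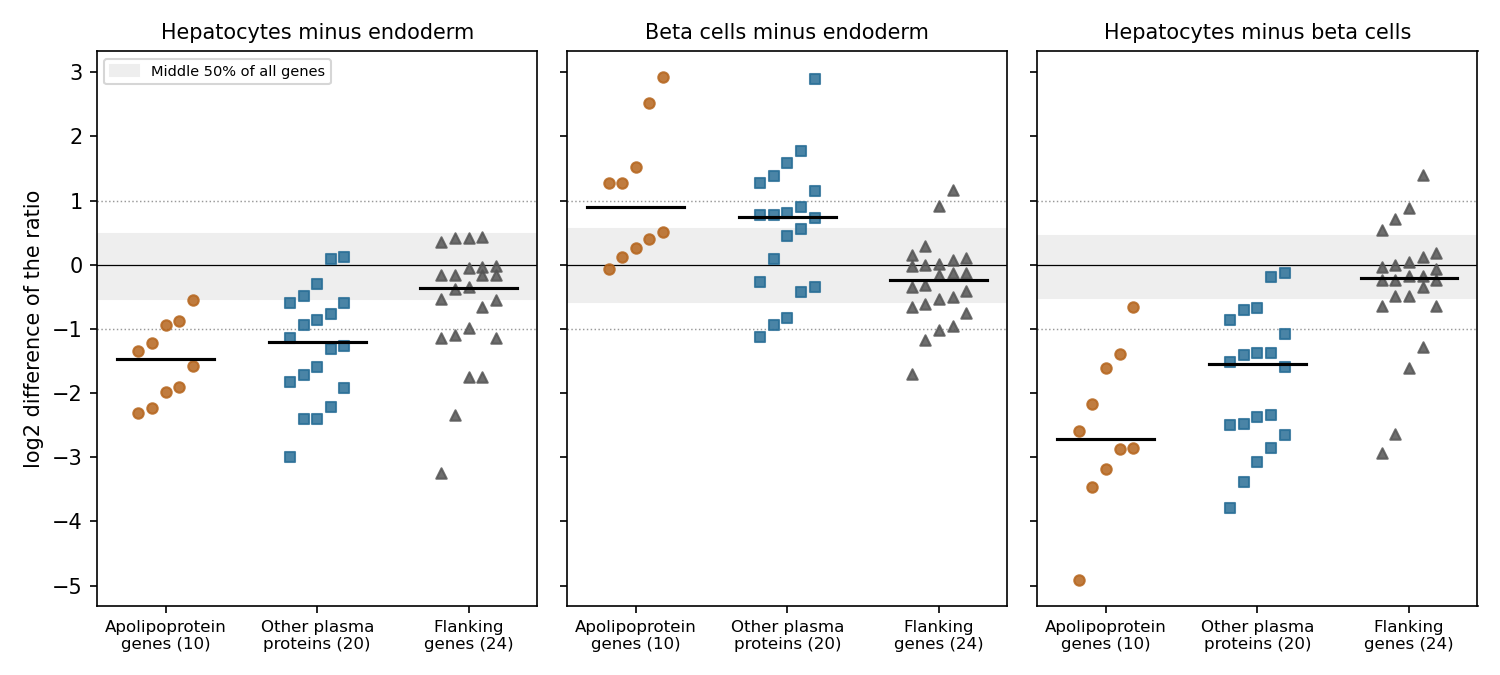
Log2 difference of the ratio in each comparison for the 10 apolipoprotein genes, 20 other plasma protein genes and 24 genes that flank the apolipoprotein genes, 1 point per gene. The flanking genes include Apoc4 and the combined Apoc4-Apoc2 transcript. Black bars are medians, the dotted lines mark the threshold of 1 and the grey band holds the middle 50% of all genes. Between hepatocytes and beta cells the medians were -2.72, -1.55 and -0.20, from the left. After division by the most frequent ratio, Apoa1 turned positive in beta cells against endoderm.

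The third comparison set hepatocytes against beta cells. In hepatocytes 9 of the 10 genes were lower and 0 higher, where 12.5% of all genes were lower and 13.1% higher. The median log2 difference was -2.72, beside -0.04 for all genes. After Apoa5 (-4.92), the largest were Apoc1 (-3.46), Apoc3 (-3.18), Apoe (-2.87) and Apom (-2.85). Apoa4 (-2.59), Apoa1 (-2.18), Apoa2 (-1.61) and Apob (-1.39) were also past the threshold. On the plain ratio, beta cells stood 14.6-fold above hepatocytes at Apoc1, 14.0-fold at Apoc3 and 3.00-fold at Apob. At Apoh they stood 1.65-fold above. The endoderm ratio of a gene does not enter here, and division by the most frequent ratio left the members' median at -2.73 with 9 lower. Each gene's value is nonetheless its first difference minus its second, so the third comparison is no separate finding.

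The apolipoprotein genes also varied among themselves. The highest ratio was 12.5 times the lowest in hepatocytes (Apoh and Apoa5), 5.18 times in beta cells (Apoa5 and Apoa2) and 3.63 times in endoderm (Apoa1 and Apoa5). These 10 genes are not independent measurements, since 6 of them lie in 2 gene clusters. Apoa1, Apoc3, Apoa4 and Apoa5 neighbour each other on mouse chromosome 9. Apoc1 and Apoe are neighbours on chromosome 7, beside Apoc4 and Apoc2. With each cluster entered once, as the median of its members, the median log2 difference over 6 units was -1.18 for hepatocytes against endoderm, 0.65 for beta cells against endoderm and -2.23 for hepatocytes against beta cells.

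Within the Apoa1 cluster the hepatocyte ratios were low at all 4 genes, between 0.0484 and 0.254, and the beta cell ratios high, between 1.40 and 3.55. The endoderm ratios alternated along the cluster. They were 1.47 at Apoa1, 0.622 at Apoc3, 1.38 at Apoa4 and 0.403 at Apoa5, so that neighbours differed by more than 2-fold. The genes on either side differed less between the adult cell types and stayed under the threshold there. Sik3, a kinase gene next to Apoa1, had 0.338 in hepatocytes, 0.504 in beta cells and 0.463 in endoderm. Zpr1, next to Apoa5, had 0.178, 0.318 and 1.20, and was thus lower in both adult cell types than in endoderm. For hepatocytes minus beta cells, Sik3 had -0.49 and Zpr1 -0.64 on the log2 scale, the sign of the members. The next genes out, Pafah1b2 (0.410, 0.495 and 0.684) and Bud13 (0.495, 0.449 and 0.746), differed between hepatocytes and beta cells by -0.24 and 0.12 on the log2 scale.

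In the Apoe cluster, Apoc4 resembled the 2 members, with ratios of 0.0739 in hepatocytes, 1.03 in beta cells and 0.419 in endoderm. Apoc2, the activator of lipoprotein lipase, had 0.611, 1.28 and 1.92, with its highest ratio in endoderm. The table also lists a combined Apoc4-Apoc2 transcript (0.321, 1.13 and 1.24), which overlaps both genes, so these 3 rows cannot be treated as separate. Tomm40, a mitochondrial import gene on the other side of Apoe, had 0.332 in hepatocytes, 0.334 in beta cells and 0.380 in endoderm, and the next gene, Nectin2, had 0.530, 0.636 and 0.603.

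**Figure D3:**
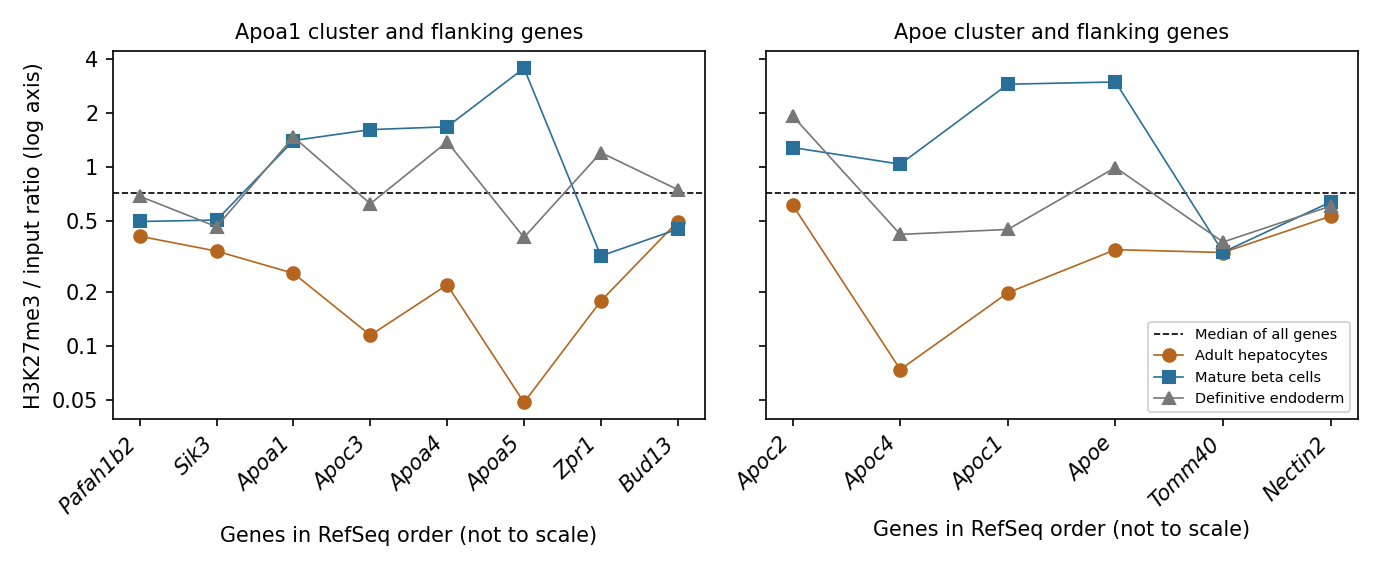
Ratio of H3K27me3 to input (log axis) along both apolipoprotein clusters and their flanking genes, in RefSeq order and not to scale, for hepatocytes, beta cells and endoderm. The lines of hepatocytes and beta cells lie far apart over the apolipoprotein genes and come close at Sik3, Zpr1 and Tomm40, where the ratios were 0.338 and 0.504, 0.178 and 0.318, and 0.332 and 0.334.

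For the 4 genes outside clusters, the 2 nearest genes on each side in the table were taken. Tomm40l, next to Apoa2, had ratios of 0.0666 in hepatocytes, 0.784 in beta cells and 1.24 in endoderm. Nr1i3, the nuclear receptor gene beyond it, had 0.289, 0.801 and 0.643. The differences of both between hepatocytes and beta cells were past the threshold (-2.63 and -1.28). On the other side of Apoa2, Fcer1g had a difference of -0.64. Beside Apom, Bag6 (0.426, 0.450 and 0.986) and Prrc2a (0.347, 0.462 and 0.464) lay on one side. On the other were D17H6S53E (0.323, 0.170 and 0.335) and Gpank1 (0.626, 0.194 and 0.443), which was higher in hepatocytes than in beta cells by 1.40. Gdf7 near Apob had 10.54 in hepatocytes, 5.70 in beta cells and 8.26 in endoderm, and Ldah, next to Apob, 0.471, 0.541 and 0.478. Next to Apoh, Cep112 had 0.786, 1.14 and 0.573, and Prkca, at the second place on the other side, had 0.585, 0.507 and 0.662. The first place there is taken by Mir7223, with ratios of 0.0126, 0.0105 and 0.114. Axin2, beyond Cep112, had 0.733, 0.755 and 0.765. Before Apob stood the unnamed genes 1700101O22Rik (0.973, 1.16 and 1.46) and 2810032G03Rik (1.84, 1.24 and 1.36). Of the 24 flanking genes in all, 4 were lower and 1 higher in hepatocytes than in beta cells (median -0.20). Of all genes, 12.5% were lower and 13.1% higher. The 4 lower genes were Tomm40l, Nr1i3, Apoc4 and the combined Apoc4-Apoc2 transcript, and the last pair overlap and are themselves apolipoprotein rows. Against endoderm, 7 of the 24 were lower and 0 higher in hepatocytes (median -0.37), and 3 were lower and 1 higher in beta cells (median -0.24). Of all genes, 13.3% were lower and 12.8% higher in hepatocytes, and 15.1% lower and 14.1% higher in beta cells.

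Promoter CpG content differed between the apolipoprotein genes and the genes around them. Among 20 flanking genes with a RefSeq promoter the median value was 0.830, and 15 of the 20 lay above 0.420, the highest value of the 8 apolipoprotein promoters. The other 5 differed in direction. Apoc4 (0.227) and Nr1i3 (0.144) were lower in hepatocytes than in beta cells, Gpank1 (0.242) was higher, and 1700101O22Rik (0.166) and Fcer1g (0.317) were under the threshold, with differences of -0.23 and -0.64. Over all genes, median ratios were larger where promoter CpG content was low. In the 25% of promoters with the lowest CpG content they were 1.02 in hepatocytes, 1.09 in beta cells and 0.881 in endoderm. For the 25% with the highest they were 0.494, 0.516 and 0.546. In the 25% of promoters with the lowest CpG content, 24.0% of 4353 genes were higher in beta cells than in endoderm, and 5.21% in the 25% with the highest. In hepatocytes against endoderm those shares of higher genes were 23.1% and 3.72%, and the shares of lower genes were 11.5% and 12.8%. The share of genes lower in hepatocytes than in beta cells was 15.8% in the lowest CpG class and 13.1% in the next, the 2 classes that hold all 8 apolipoprotein promoters. Of these 8 genes, 7 were lower. The part of CpG content in the apolipoprotein values was not tested.

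**Figure D4:**
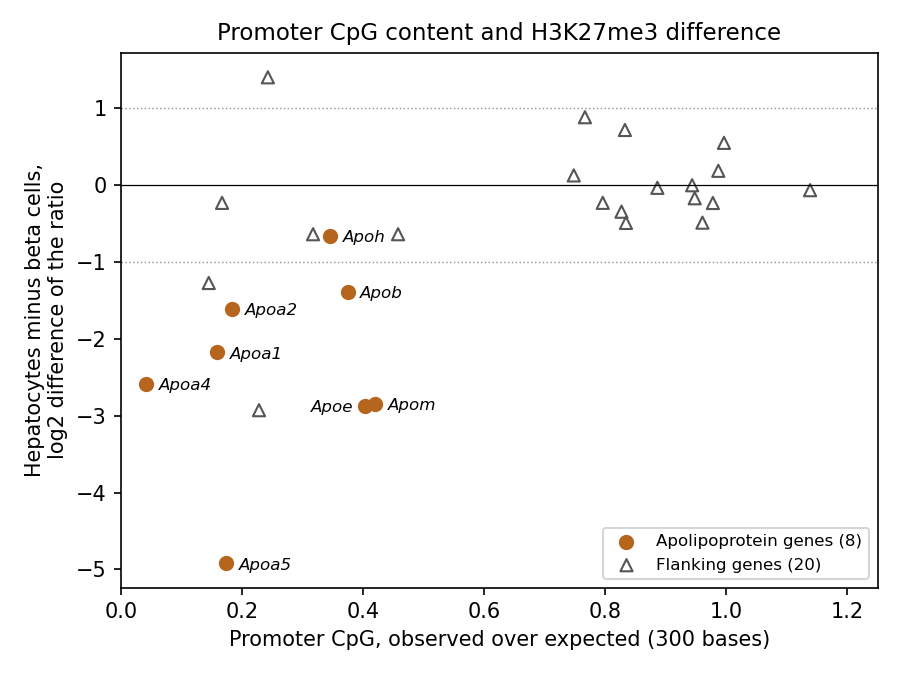
Observed over expected CpG in the 300 promoter bases against the log2 difference of hepatocytes minus beta cells, for 8 apolipoprotein genes and 20 flanking genes, Apoc4 among the latter, 1 point per gene. Dotted lines mark the threshold of 1. The apolipoprotein points all lie at or below 0.420 on the horizontal axis and below 0 on the vertical axis, and most flanking genes lie to the right, close to 0.

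Other genes of lipoprotein metabolism were described by their role, with ratios always in the order hepatocytes, beta cells, endoderm. The counts of every list stand beside these shares of all genes. In hepatocytes against endoderm 13.3% were lower and 12.8% higher (7.77% and 21.4% after division by the most frequent ratio). In beta cells against endoderm 15.1% were lower and 14.1% higher (9.62% and 23.4% after it). In hepatocytes against beta cells 12.5% were lower and 13.1% higher. Of 12 genes for lipoprotein assembly and secretion, 5 were lower in hepatocytes than in endoderm and 0 higher (median -0.53). After division by the most frequent ratio only 1 was lower and 1 was higher (median -0.13). Mttp, the transfer protein that loads lipid onto Apob, had ratios of 0.383, 0.524 and 0.420, in the order of most apolipoproteins but with a difference of only -0.39 between hepatocytes and beta cells. Apobec1, which edits the Apob transcript, had 0.338, 0.902 and 1.05. In beta cells against endoderm 1 was higher and 0 lower (median 0.05), and the 1 was Cideb, a protein of lipid droplets and lipoprotein lipidation (0.406, 1.05 and 0.224). Against beta cells, 6 were lower in hepatocytes and 0 higher (median -0.95), led by Dgat2, an enzyme of triglyceride synthesis (0.203, 0.911 and 0.584).

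Of 13 lipases and plasma remodelling genes, 6 were lower and 0 higher in hepatocytes against endoderm (median -0.67), and 8 lower and 0 higher against beta cells (median -1.46). In beta cells against endoderm 3 were higher and 2 lower (median 0.14). Angptl8, an inhibitor of lipoprotein lipase, had 0.0163, 0.770 and 1.97, and Lcat, the cholesterol-esterifying enzyme that Apoa1 activates, 0.0915, 1.06 and 0.726. Gpihbp1, the endothelial anchor of lipoprotein lipase, had 2.37, 8.87 and 1.67.

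Receptors showed little of the pattern. Of 12 genes for lipoprotein receptors and uptake, 1 was lower and 0 higher in hepatocytes against endoderm (median -0.23). After division by the most frequent ratio 0 were lower and 1 higher, and the median turned to 0.19. Against beta cells, 3 were lower and 2 higher (median -0.20), and in beta cells against endoderm 3 were higher and 1 lower (median 0.13), or 5 higher and 0 lower after that division. Scarb1, the receptor of high density lipoprotein, had 0.187, 0.513 and 0.451. Lrp8, a receptor for Apoe in brain, had 1.77, 0.544 and 1.18. Of 6 genes for lipid export and absorption, 2 were lower in hepatocytes against endoderm (median -0.84, and 1 after that division) and 2 against beta cells (median -0.45), in both cases Abcg5 (0.451, 1.68 and 1.13) and Abcg8 (0.325, 1.64 and 1.18), which together form the sterol exporter into bile. In beta cells against endoderm only Abcg1 was lower (0.926, 0.443 and 1.40), and the median of -0.24 turned to 0.17 after that division.

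Of 20 regulators of apolipoprotein and lipid genes, 13 were lower and 0 higher in hepatocytes against endoderm (median -1.46). Cebpa (0.131, 3.76 and 11.3) and Foxa1 (1.78, 6.35 and 72.6) had the largest differences, each from a high endoderm ratio that no apolipoprotein gene approached. The others were Nr2f2 (0.283, 4.78 and 3.76), Ppara (0.224, 0.961 and 1.38), Nr5a2 (0.271, 1.49 and 1.44), Nr0b2 (0.161, 1.83 and 0.943) and Nr1h3 (0.421, 0.962 and 1.77). Mlxipl (0.421, 0.424 and 1.69), Nr1h2 (0.279, 0.400 and 1.04), Nr1h4 (0.207, 0.676 and 0.694), Foxa2 (0.676, 0.183 and 1.98), Creb3l3 (0.317, 1.85 and 0.973) and Foxa3 (0.537, 0.429 and 1.15) completed them. In beta cells against endoderm, 6 regulators were lower and 0 higher (median -0.50, and 2 higher with 4 lower after that division): Foxa1, Foxa2, Cebpa, Mlxipl, Foxa3 and Nr1h2. Against beta cells, 9 were lower in hepatocytes (Cebpa, Nr2f2, Nr0b2, Creb3l3, Nr5a2, Ppara, Foxa1, Nr1h4 and Nr1h3) and Foxa2 was higher (median -0.69). Hnf4a, a nuclear receptor that activates many apolipoprotein genes, had 0.465, 0.749 and 0.751 and stayed under the threshold in each comparison.

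**Figure D5:**
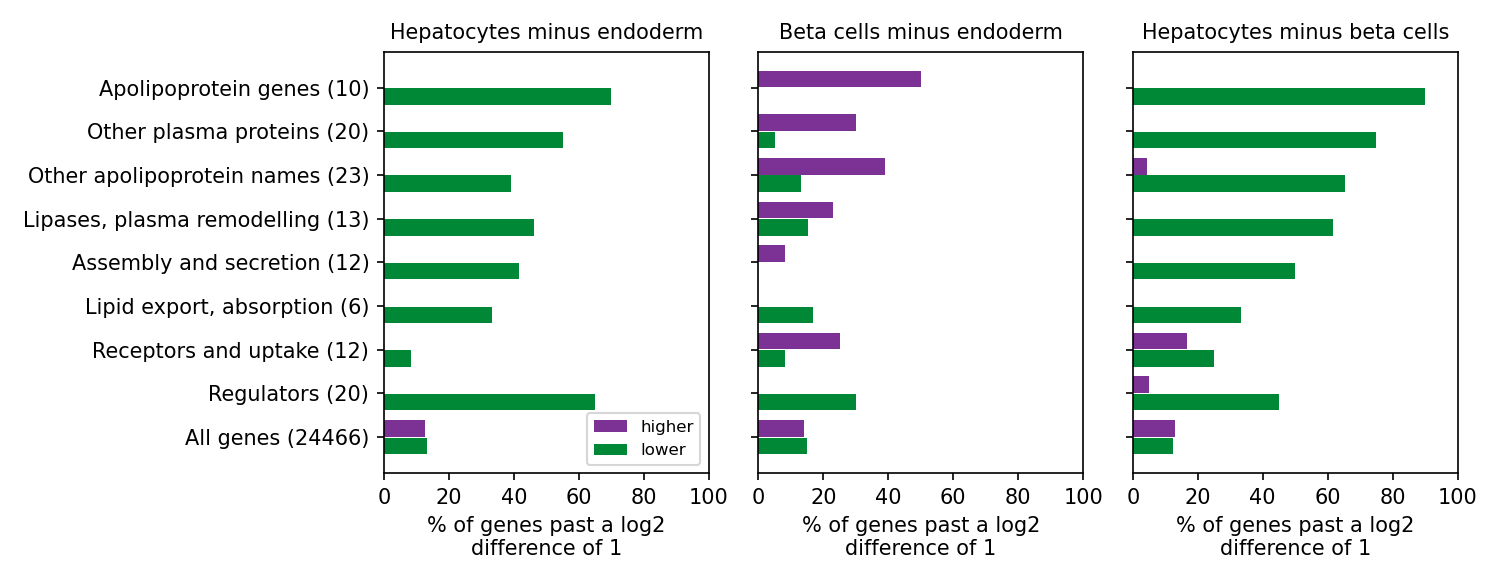
Share of each gene list past a log2 difference of 1, higher and lower, in the 3 comparisons, with the number of genes in brackets. The apolipoprotein bars reach 7 of 10 lower, 5 of 10 higher and 9 of 10 lower, from the left. The bars of all genes lie between 12.5% and 15.1%. After division by the most frequent ratio, the shares of all genes against endoderm move apart. In hepatocytes 21.4% were then higher and 7.77% lower, and in beta cells 23.4% and 9.62%.

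Of 23 further genes with apolipoprotein names or roles, 9 were lower and 0 higher in hepatocytes against endoderm (median -0.71), and 5 lower and 1 higher after division by the most frequent ratio (median -0.29). In beta cells 9 were higher and 3 lower than in endoderm (median 0.76), and against beta cells 15 were lower and 1 higher in hepatocytes (median -1.47). Saa1, an acute-phase protein of high density lipoprotein, had ratios of 0.180, 4.19 and 1.95, and Apon 0.0473, 0.999 and 0.559, the same direction as the members in hepatocytes. Saa4 had 0.0401, 0.516 and 1.77. Apof went the other way in beta cells (0.485, 0.212 and 1.23), and so did Apoo (1.68, 0.437 and 2.40), a mitochondrial protein encoded on the X chromosome. Apol9a and Apol9b, close copies of each other, had 0.374, 3.07 and 0.774 and 0.331, 1.73 and 0.503, and near-identical copies may share reads. Apod, which is made in many tissues, had 1.02, 0.915 and 0.653.

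The members were set beside 20 other plasma proteins secreted by hepatocytes to see whether the apolipoproteins stood apart. Against endoderm, 11 of these were lower and 0 higher in hepatocytes (median -1.20), and 6 were higher and 1 lower in beta cells (median 0.75). After division by the most frequent ratio these counts were 8 lower in hepatocytes, and 11 higher and 0 lower in beta cells. Against beta cells, 15 were lower and 0 higher in hepatocytes (median -1.55). They thus had the direction of the apolipoproteins, and 7 of the 20 were in the lowest 25% in hepatocytes and the top 25% in beta cells. Transferrin (Trf) had ratios of 0.149, 1.52 and 0.590 and vitronectin (Vtn) 0.478, 4.58 and 1.29. Ahsg had the highest difference of the list in beta cells against endoderm (2.90), from ratios of 2.81 and 0.315. No test of a difference between both lists was possible.

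Genes were ranked by distance to the median profile of the members over the 3 log2 values. Left out were the members and all rows with Gm, Rik, Olfr, Vmn, Mir or Snor names, so nearer rows of these kinds would not appear. The nearest of the rest were Mbl2 (0.205, 1.63 and 0.628), Cyp2a22 (0.216, 1.69 and 0.589), Hrg (0.229, 1.46 and 0.581), Tmem14a (0.186, 1.35 and 0.561) and Cps1 (0.181, 1.36 and 0.703). Their distances lay between 0.052 and 0.30. Of the members, Apom was nearest to that profile (0.33) and Apoa5 farthest (1.76). In the whole table, with no rows left out and members included, 340 genes lay within 1 unit of it. With 3 cell types such a likeness is weak.

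Markers of each cell type were used to check the labels. The median ratio of 10 hepatocyte markers was 0.241 in hepatocytes, 0.955 in beta cells and 0.727 in endoderm, and that of 12 beta cell markers was 1.37, 0.438 and 1.21. In beta cells 8 of these 12 were lower than in endoderm, but Ins1 was not (1.38, 1.56 and 0.0471). The list of 10 definitive endoderm markers had medians of 0.707, 1.37 and 1.36, so H3K27me3 did not mark endoderm out by this list. Sox17 (7.05, 4.16 and 1.42) and Cxcr4 (5.54, 3.07 and 1.74) were lowest there. Foxa1 (1.78, 6.35 and 72.6), Foxa2 (0.676, 0.183 and 1.98) and Foxa3 (0.537, 0.429 and 1.15) were among the markers that were highest there. Blood and immune markers, which bear on Apoe because macrophages make it, had medians of 0.946, 1.10 and 1.12, those of endothelium 1.20, 1.52 and 0.913, and those of mesenchyme and stellate cells 1.34, 1.46 and 1.22. Acinar markers had 1.06, 2.19 and 1.16, and markers of alpha and delta cells 3.59, 4.20 and 3.38. The part of other cells in the apolipoprotein values was not tested.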

How the data were processed

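The values are ratios of H3K27me3 to input per gene, and the authors quantile-normalized them, per the file headers. That the ratio is linear was read from the values, which are all above 0. Bowtie2 2.1.0, bedtools and the build mm9 are named, per the submitters' processing notes. Their roles, the interval used at each gene, any added constant and how replicates were merged were not given in the sources used here.

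Symbols were matched exactly once trailing spaces were removed, and the 3 comparisons are differences of log2(ratio + 0.0711), the pseudocount being the median ratio divided by 10. Called means a log2 difference of at least 1. RefSeq tables of GRCm38.p6 gave gene order (10 of 10 members matched) and promoters (8 of 10, the first entry of each gene). The calculation was run on simulated data with planted changes well past the threshold, at genes above the median endoderm ratio. That run checks the code only and says nothing on the apolipoprotein values. Python 3.11.15 with pandas 2.3.3, numpy 2.4.6 and matplotlib 3.10.9 was used. Libraries for H3K9me3 were not analysed here.

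The members, the 7 pathway lists and the 9 marker lists were chosen with earlier results of these data known. All members are named, with up to 4 genes of each list per comparison by size of difference, every called regulator, the 2 nearest genes on each side and the 5 genes nearest to the members' median profile. Genes named besides were chosen after their values were seen, among them Mttp, Hnf4a, Apod, Apol9b, Apoc2 and the markers. Some genes that this rule would name are not reported here.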

Additional observations from a re-analysis of the deposited data

How the results depend on the processing

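Tried were pseudocounts 10 times smaller and 10 times larger, rank percentiles with a threshold of 25 points, division of each column by its most frequent ratio, only genes above the median level, thresholds of 1.5 and 0.5, clusters entered once and, added after the data were seen, no pseudocount. No member was counted in the opposite direction under any of them. With the larger pseudocount, 2 of 10 genes were lower in hepatocytes than in endoderm (median -0.58) and 3 higher in beta cells than in endoderm, where 4.94% of all genes were lower and 6.32% higher. In hepatocytes against beta cells 7 of 10 were lower (median -1.37), where 5.06% of all genes were lower. Adding a constant as large as the median shrinks differences of low ratios by construction. At a threshold of 1.5, 3 were higher in beta cells than in endoderm, where 8.05% of all genes were higher. The filter on level (mean over cell types) kept Apoa1, Apoa4, Apoe and Apoh, of which 3 were lower in hepatocytes than in endoderm, 1 higher in beta cells than in endoderm and 3 lower in hepatocytes than in beta cells. Among all 12233 genes kept by the filter, these shares were 12.0%, 17.4% and 13.3%. All 4 members had hepatocyte ratios under the median of all genes and passed through their other ratios, so their lower calls in hepatocytes carry no weight. Their median for beta cells against endoderm was 0.19. The members' median for beta cells against endoderm passed the threshold after division by the most frequent ratio (1.29). Without a pseudocount Apob and Apoc1 also passed it in hepatocytes against endoderm (-1.02 and -1.17). No paired analysis was possible because the table holds 1 value per gene for each cell type, so no replicate could be left out either. Depth is unknown, and low ratios such as that of Apoa5 in hepatocytes carry no error.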

Other observations

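Fatty acid binding proteins, which handle lipid inside the cell and are no apolipoproteins, were in the list of visceral endoderm and enterocyte markers. Fabp1, the form of liver and intestine, had ratios of 0.142 in hepatocytes, 1.65 in beta cells and 0.575 in endoderm, close to those of Apom. Fabp2, the intestinal form, had 0.311, 1.40 and 0.190. Amn and Cdx2, also in that list, had ratios far above the median of all genes in every cell type (5.27, 5.12 and 6.58, and 5.54, 5.82 and 4.40). The 9 genes of the list had medians of 0.755 in hepatocytes, 1.28 in beta cells and 0.575 in endoderm.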
